A study of Mus musculus with 2 samples.

Results

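The genes described here are ligands of the epidermal growth factor (EGF) family, the ErbB receptors that bind them, and Errfi1, an inhibitor of those receptors. They were taken as all probe sets whose symbol in the platform annotation is Egf, Tgfa, Hbegf, Areg, Btc or Ereg (ligands), Egfr, Erbb2 or Erbb3 (receptors) or Errfi1. A probe set is the group of short probes that together read a transcript. Of these 10 genes, 9 had a probe set named here, 21 probe sets in all, among 18193 named genes and 45037 probe sets on the array. No probe set was named for Areg, which was not analysed here. The rule selects genes by symbol and not by a measured value, but the set was chosen with the fall of Egf in these data already known, so that fall is described here and not an independent finding.

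Whole-kidney RNA was measured on 1 Affymetrix array from each kind of mouse, labelled as control and cystic. Both kinds carried the transgene inv-deltaC::GFP, which encodes inversin without its C-terminus and is joined to a green fluorescent protein tag. The control had the genotype +/+ at the inv locus and the cystic kidney inv/inv, a mouse model of nephronophthisis type 2, and both were 4 weeks old by the series design. The labels of the cystic array also give 28 days and a female sex, while those of the control give neither, and the number of animals or kidneys behind each array and the promoter of the transgene are not stated.

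EGF family ligands are made as membrane-bound precursors, released by metalloproteases, and bind ErbB receptors on the same or a neighbouring cell. A bound receptor pairs with another ErbB receptor, becomes phosphorylated and starts the Ras, MAP kinase and phosphoinositide 3-kinase cascades. In the kidney, Egf is known as a product of the thick ascending limb and the distal convoluted tubule that is released into the urine. EGF receptor signalling is studied in cyst growth and in tubule repair.

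The values are MAS5 signals, a linear fluorescence intensity in arbitrary units, and they compare a probe set between the arrays but not with another probe set. The median signal of each array served as its floor, which was 55.4 on the control and 61.9 on the cystic array. A probe set under both floors was treated as not measured, and where it lay under 1 of them, the floor replaced that signal and the ratio is only a bound. Log2 ratios are cystic minus control. With 1 array per group there is no test and no p-value, and rose or fell is used only for a difference of at least 2-fold between these arrays. A gene took the value of its brightest probe set, and probe sets of the same gene differed in their log2 ratios by a pooled SD of 0.29 over 4694 genes, which is technical spread and holds no difference between animals. In bulk RNA, fewer cells of a type and less RNA per cell cannot be told apart.

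Genotype, tissue and sex were checked against the labels first. The brightest Invs probe set went from a signal of 118 in the control to 15.9 in the cystic kidney, which is at least 1.91-fold lower. Proximal tubule markers were above the floor on both arrays in 8 of 8 cases, with log2 ratios from -2.06 (Slc22a6) to -0.68 (Aqp1), and 6 of the 8 fell. The sex label of the cystic array was not borne out: Xist, the RNA that silences an X chromosome in females, went from a control signal of 387 to 57.4 in the cystic kidney, under the floor. The Y-linked genes Eif2s3y, Kdm5d and Uty gave 132, 152 and 206 in the control against 142, 194 and 198 in the cystic kidney. On the control array Xist and the Y-linked genes were all above the floor, so these signals do not assign it to a single sex. Any difference in sex between the arrays cannot be told apart from genotype. The ratio of signals from the 3' and the 5' end of the transcript, a measure of RNA integrity, was 1.23 on the control and 1.17 on the cystic array for Actb, and 0.779 and 0.780 for Gapdh.

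Egf fell while no other family gene passed 2-fold in either direction. Of the 8 genes that were measured, 0 rose, 1 fell and 7 stayed within 2-fold. Among all 12015 measured genes, 7.06% rose and 3.78% fell by the same rule, so 0 rising and 1 falling among 8 is not a count that sets the family apart. By probe set, 1 of the 18 measured passed 2-fold in either direction, beside 9.21% of all measured probe sets. Bounds entered both counts at their floor value, and 3 of the 18 were bounds. The gene that fell lay far out in the distribution of ratios, with 110 of the 12015 measured genes lower than Egf.

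**Figure D1:**
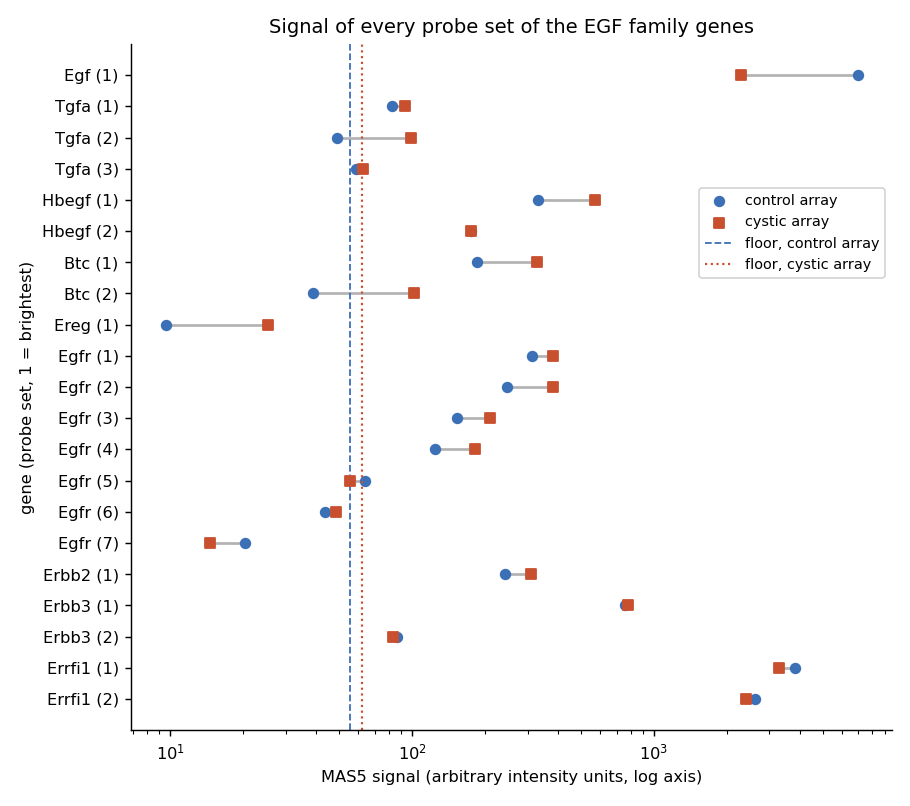
MAS5 signal (log axis) of each of the 21 probe sets in the control (circles) and the cystic kidney (squares), with the floor of each array as a vertical line and probe sets numbered from the brightest within a gene. Egf moved from 6965 to 2294, and the receptor and other ligand probe sets that passed a floor moved by smaller steps.

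Egf, the founding ligand of the family, was read by a single probe set. Its signal was 6965 in the control and 2294 in cystic kidney, which is 32.9% of the control. The log2 ratio of -1.60 corresponds to a 3.04-fold lower signal and is 5.47 times the SD between probe sets in size, though no second Egf probe set was there to repeat it. This probe set carries the suffix _a_at, and the platform annotation names Egf alone for it. The setting without shared probe sets left out the suffixes _s_at, _x_at and _a_at alike. Under it Egf had no value and 0 family genes fell. Relative to the median log2 ratio of all measured genes, 0.09, Egf was lower by a log2 difference of -1.69. The transcript remained well above the floor of the cystic array.

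The other ligands did not share the fall. Btc, betacellulin, which binds Egfr and Erbb4, had signals of 186 and 329 at its brightest probe set, a log2 ratio of 0.82. Its second probe set went from 39.1, under the floor, to 101.7, which is at least 1.84-fold higher. Both Btc probe sets were thus higher in the cystic kidney. The brightest did not pass 2-fold, and the bound of the second does not settle whether it did.

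Hbegf, the heparin-binding ligand that also serves as the diphtheria toxin receptor in humans, had signals of 333 and 568 at its brightest probe set, a log2 ratio of 0.77. Its second probe set had signals of 175.7 and 175.3, a log2 ratio of -0.0033. The 2 Hbegf probe sets therefore differed from each other by more than the usual spread between probe sets, and the higher value rests on the brightest alone.

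Tgfa, transforming growth factor alpha, an Egfr ligand made by many epithelia, was close to the floor on both arrays. Its brightest probe set had signals of 82.6 and 93.1, a log2 ratio of 0.17, and its faintest had 58.7 and 62.9, a log2 ratio of 0.10. Its second went from 49.0 to 98.7 and was at least 1.78-fold higher. All 3 ratios were above 0. The brightest and the faintest did not pass 2-fold, and the bound of the second does not settle whether it did.

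Ereg, epiregulin, an Egfr and Erbb4 ligand, had signals of 9.6 and 25.3, both under the floors, so no direction is read from it. The ligands ordered by log2 ratio were Egf at -1.60, then Tgfa at 0.17, Hbegf at 0.77 and Btc at 0.82. Hbegf and Btc lay closer together than the SD between probe sets, while Egf stood apart from its nearest neighbour, Tgfa. The log2 ratio of Egf was 2.38 units under the median of the other 3 measured ligands (a difference of -2.38), so that the ratio of Egf to that median was 5.19-fold lower in the cystic kidney. That median is the value of the brightest Hbegf probe set, which the second did not repeat. With the median over the probe sets of each gene, the difference was -1.99.

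**Figure D2:**
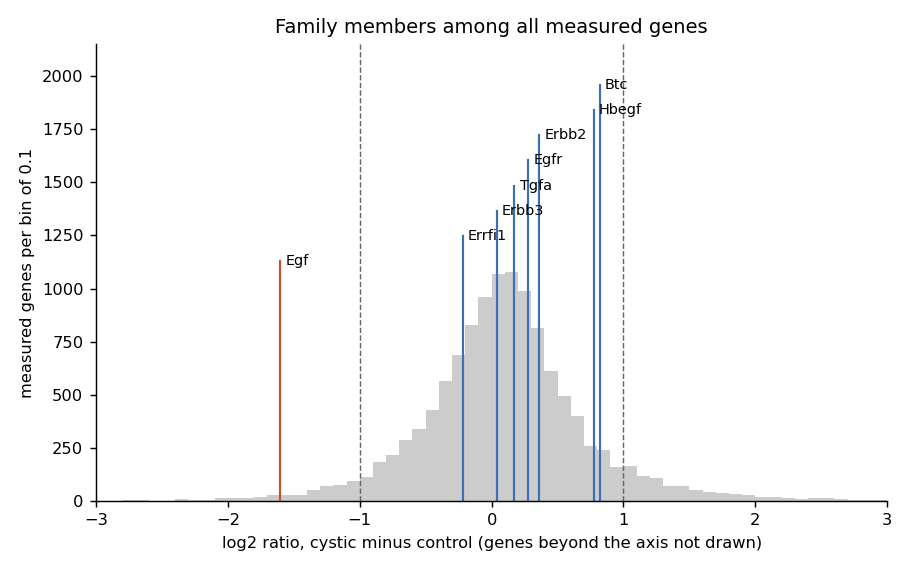
Histogram of the log2 ratio of measured genes (grey, bins of 0.1) with a vertical line at each of the 8 measured family genes, whose heights only separate the names. Dashed lines mark 2-fold (log2 of 1 either way), 7 genes below -3 and 27 above 3 are not drawn, and Egf is the family gene beyond a dashed line.

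The stretch of DNA ahead of the transcription start is printed for Egf and for Tgfa and Btc, the measured ligands with a window in the RefSeq promoter table (GRCm38.p6), to show the regulatory sequence of the ligand that fell beside ligands that did not. The table held a window for 7 of the 10 genes. Each line gives the 250 bases before the start, 5' to 3' on the gene's strand, with motif matches in capitals.
Egf, chr3:129755323-129755572, minus strand: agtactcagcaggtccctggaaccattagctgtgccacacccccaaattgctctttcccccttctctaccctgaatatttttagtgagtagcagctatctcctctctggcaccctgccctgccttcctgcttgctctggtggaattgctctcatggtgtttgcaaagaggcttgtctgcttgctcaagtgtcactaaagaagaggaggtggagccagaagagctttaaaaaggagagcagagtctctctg
Tgfa, chr6:86194972-86195221, plus strand: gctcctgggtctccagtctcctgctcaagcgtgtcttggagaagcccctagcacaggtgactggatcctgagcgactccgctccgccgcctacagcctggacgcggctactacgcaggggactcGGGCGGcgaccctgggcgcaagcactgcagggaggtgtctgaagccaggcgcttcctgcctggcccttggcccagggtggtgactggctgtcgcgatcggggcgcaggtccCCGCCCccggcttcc
Btc, chr5:91402995-91403244, minus strand: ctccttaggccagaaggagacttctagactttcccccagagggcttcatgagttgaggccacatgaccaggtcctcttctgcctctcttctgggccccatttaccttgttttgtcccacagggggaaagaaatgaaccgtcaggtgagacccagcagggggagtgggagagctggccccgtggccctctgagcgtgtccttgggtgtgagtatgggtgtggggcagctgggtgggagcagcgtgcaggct
Motifs were searched on both strands as a TATA box (TATAAA), an AP-1 site (TGANTCA) and a GC box (GGGCGG). These letters were found in 12.4%, 6.75% and 32.7% of the 32851 windows of this length in the table. The Tgfa window held 2 GC boxes, which start 126 and 15 bases before the transcription start, and the Egf and Btc windows held none of the 3 motifs. The Tgfa window was richer in G and C (69.2%) than those of Btc (59.6%) and Egf (50.4%). The table lists a second Egf start further inside the gene, whose window (chr3:129725087-129725336) also held none of the 3 motifs. Only these exact letters were searched, so a window without a match may still hold a related element spelled differently. The matches describe letters, and the arrays do not test them.

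No receptor probe set above both floors passed 2-fold between the arrays. Egfr, the receptor of Egf, Tgfa, Hbegf and Btc, was read by 7 probe sets, of which 5 were measured. The brightest had signals of 314 and 381, a log2 ratio of 0.28. The next 3 had log2 ratios of 0.63, 0.45 and 0.55, with signals of 246 and 382, 154 and 210, and 125 and 183. All 4 Egfr probe sets above both floors were thus higher in the cystic kidney by less than 2-fold. The fifth went from 64.1 to 55.5, the latter under the cystic floor, a bound of -0.05. The remaining 2, with signals of 43.7 and 48.5 and of 20.3 and 14.6, were not measured.

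Erbb2, which binds no ligand itself and pairs with the other receptors, had signals of 243 and 312 at its only probe set, a log2 ratio of 0.36. Erbb3, a receptor of neuregulins with little kinase activity of its own, had signals of 758 and 779 at the brightest probe set and 86.3 and 83.6 at the second. Its log2 ratios of 0.04 and -0.05 lay within the spread between probe sets of the same gene. The receptors ordered by log2 ratio of the brightest probe set were Erbb3, Egfr and Erbb2, and the step from Egfr to Erbb2 was smaller than that spread. The brightest Egfr probe set had the lowest ratio of the Egfr probe sets above both floors, and the others lay above Erbb2. Egf lay lower than the median receptor by a log2 difference of -1.88, or 3.68-fold. That median is the value of the brightest Egfr probe set, and with the median over the probe sets of each gene the difference was -1.96.

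Errfi1, also known as Mig6, binds the kinase domain of ErbB receptors and blocks their activity, and its transcript is induced by receptor signalling. It had signals of 3833 and 3295 at the brightest probe set and 2604 and 2413 at the second. The log2 ratios of -0.22 and -0.11 were both below 0 and smaller than the SD between probe sets. Across the 15 probe sets of the family above both floors, 10 had ratios above 0 and 5 below, and those below were Egf, both of Errfi1, and the second of Hbegf and of Erbb3.

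Markers of the tubule segments that make Egf were set beside it. In the distal convoluted tubule, 2 of 9 measured markers fell and 0 rose, with a median log2 ratio of -0.49. Over all measured genes, 3.78% fell and 7.06% rose. Calb1 and Pvalb, calcium-binding proteins of that segment, fell with log2 ratios of -2.03 (signals 4810 and 1179) and -1.97 (835 and 213), which are lower than that of Egf. The sodium chloride cotransporter Slc12a3 had -0.94 (2655 and 1379), the sodium-calcium exchanger Slc8a1 -0.82 and Fxyd2, a subunit of the sodium pump, -0.49. The list median is this Fxyd2 value, and under the alternatives to the processing that median was between -0.65 and -0.26. Trpm6, the magnesium channel that Egf is known to stimulate, had signals of 245 and 222, a log2 ratio of -0.14. Kcnj10, a potassium channel, had -0.15, while Cnnm2, linked to magnesium handling, had 0.13 and the kinase gene Stk39 had 0.63. At their second probe sets, Calb1 had -2.97, Slc8a1 -0.999, Fxyd2 -0.65, Trpm6 -0.49, Cnnm2 -0.10 and Stk39 0.91.

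In the thick ascending limb, 1 of 8 measured markers fell and 1 rose, with a median of -0.28. Beside 3.78% falling and 7.06% rising over all measured genes, 1 of 8 either way does not set this list apart. Umod, which encodes uromodulin, an abundant urinary protein made in that segment, had signals of 8713 and 8160, a log2 ratio of -0.09, and the cotransporter Slc12a1 had 5991 and 4787, a log2 ratio of -0.32. Kcnj1 had -0.24, Ptger3 -0.70 and Cldn10 -0.78, while Ppp1r1b fell with -1.56 and the claudin genes Cldn16 and Cldn19 had 0.99 and 1.10, the latter a rise. The Egf ratio was lower than that of each of the 8 thick limb markers and of 7 of the 9 distal convoluted tubule markers. Its differences from the list medians were -1.32 and -1.11. From the median of the 8 proximal tubule markers, -1.19, Egf differed by -0.42, and 2 of those 8 were lower than Egf. Over all measured genes the median was 0.09. The part of either segment in the Egf value was not tested.

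**Figure D3:**
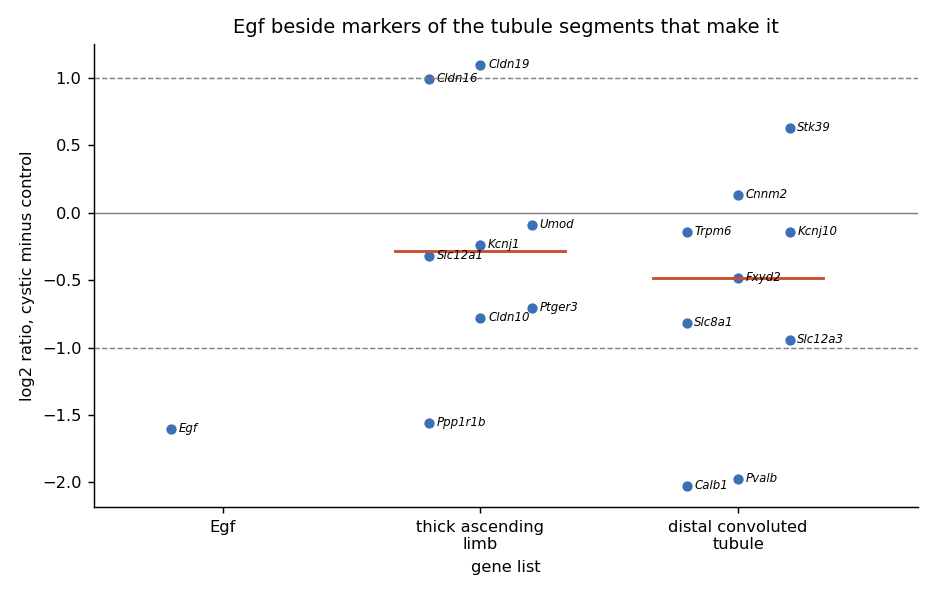
Log2 ratio, cystic minus control, of Egf and of the measured markers of the thick ascending limb (8 genes) and the distal convoluted tubule (9 genes), each point a gene at its brightest probe set, with red bars at list medians and dashed lines at 2-fold. Egf at -1.60 lies near Ppp1r1b at -1.56, with Pvalb and Calb1 below it.

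Markers of other cells differed between the arrays as well. All 8 fibroblast markers rose, from Dcn (1.42) to Tagln (3.81), and 8 of 10 macrophage markers rose, with Lyz2 highest (4.00) and Itgam lowest, at a bound of 0.49 that was not counted. All 7 measured markers of injured tubule rose, the lowest being Krt8 (1.21) and the highest Lcn2, at least 83.2-fold. Summed over the list without the floor, the macrophage markers had signals of 2101 and 9598 and the fibroblast markers 6393 and 28694 in the control and the cystic kidney. Such sums weigh the brightest probe sets most and are read only between the arrays, not between lists. Collecting duct markers had a median of 0.35, with Aqp3 lowest (-0.75) and Gata3 highest (1.08, a rise). Of the lymphocyte markers only Cd8a was measured, as a bound of -0.36, and of the mast cell and neutrophil markers Kit (0.01), Csf3r (0.34) and Ngp, whose signals of 60.6 and 48.4 give no direction. The part of these cells in the values of Hbegf, Btc and Egfr was not tested.

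The genes whose ratio was nearest to that of Egf were Nepn (-1.60), Cndp1 (-1.61) and Acsm5 (-1.60). Likeness here is the difference in log2 ratio over 2 arrays, at most 0.0057 for these 3 genes.

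Other genes of the pathway were read from lists. The remaining receptor Erbb4, the ligand Epgn and the neuregulins Nrg1, Nrg2, Nrg3 and Nrg4 were under the floor on both arrays, so 0 of these 6 were measured, the highest signal being 51.5 for Nrg2 in the cystic kidney. Among the metalloproteases that release ErbB ligands and their iRhom partners, 9 of 10 were measured, 2 rose and 0 fell. All 9 had ratios above 0, with a median of 0.45. Over all measured genes, 57.8% had ratios above 0 and the median was 0.09. Adam19 had signals of 73.1 and 283, a log2 ratio of 1.95, with a bound of 0.51 at its second probe set. Rhbdf2, the iRhom that brings Adam17 to the cell surface in immune cells, went from 15.9, under the floor, to 160 and was at least 2.89-fold higher. Adam12 had 0.70. Adam17, which cleaves Tgfa, Hbegf and Areg precursors, had signals of 281 and 401, a log2 ratio of 0.51, and Adam10, which cleaves the Egf and Btc precursors, had 991 and 1350, a log2 ratio of 0.45. The lowest of the list were Adam9 (0.22), Adam15 (0.32) and Frmd8 (0.40).

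Of 27 adaptors and kinases downstream of the receptors, 22 had a probe set named here and all 22 were measured, with 0 rising, 1 falling and a median log2 ratio of 0.24. The falling gene was Eps8, a substrate of Egfr that acts on actin, with signals of 991 and 440, a log2 ratio of -1.17, and -0.59 at its second probe set. Map2k2 and Pik3ca had -0.62 and -0.18 at their brightest and 0.15 and 0.18 at their second probe sets. The highest were Akt1 (0.82), Shc1, the adaptor that links receptors to Ras (0.74), and Nras (0.49).

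Among 16 genes that act in the down-regulation or turnover of ErbB receptors, all were measured, 2 rose and 0 fell, and the median was 0.29. Sh3kbp1, an adaptor of Cbl in receptor uptake, rose with 1.10 (71.9 and 155) and had 0.80 at its second probe set. The phosphatase gene Ptpn1 rose with 1.02 (409 and 827) and had 0.33 at its second. The ubiquitin ligase gene Cblb had 0.94, while Usp8, which removes ubiquitin from receptors, had -0.37 and 0.01 at its second probe set. Hgs and Lrig3 had 0.02 and 0.10. The rates of 2 rises among 9 and among 16 and of 1 fall among 22 stand beside 7.06% rising and 3.78% falling over all genes.

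**Figure D4:**
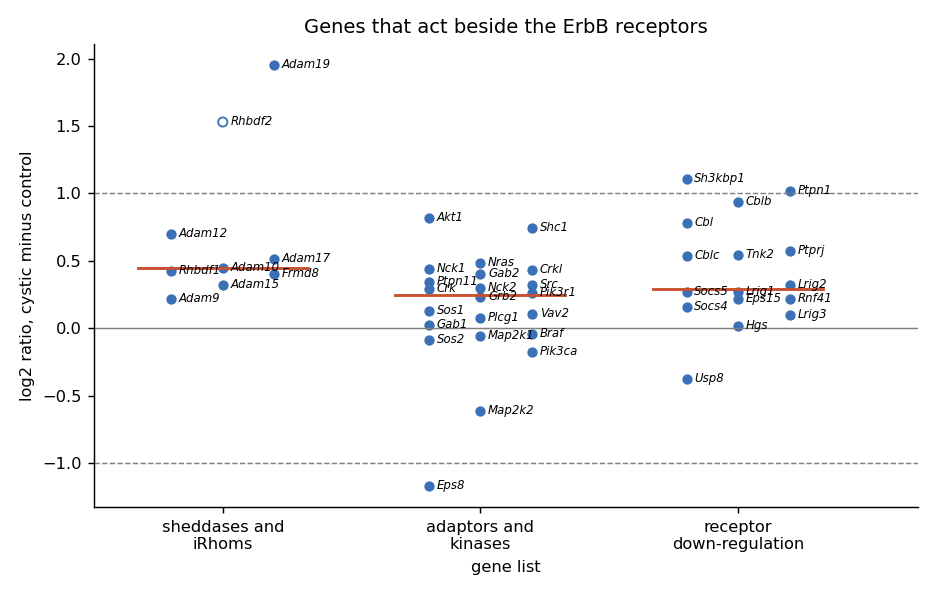
Log2 ratio, cystic minus control, of the measured sheddase and iRhom genes (9), adaptors and kinases (22) and genes of receptor down-regulation (16), each point a gene at its brightest probe set, open points bounds against a floor, red bars list medians and dashed lines 2-fold. Adam19, Rhbdf2, Sh3kbp1 and Ptpn1 lie above the upper line and Eps8 below the lower.

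The log2 ratio of Egf was between -1.76 and -1.39 under the alternative scalings. With 1 probe set well above the floors, the choices of floor and of probe set within a gene could only return -1.60. Leaving out probe sets with the suffixes _s_at, _x_at and _a_at removed Egf. Btc stayed between 0.66 and 0.88, and Erbb2 between 0.20 and 0.36. The sign of Erbb3 turned with median centring (-0.12), with the median over probe sets and with the second probe set, and that of Tgfa with quantile normalization (-0.03). Hbegf was between -0.0033 and 0.77, with the lowest value from its second probe set. At a limit of 1.5-fold in place of 2-fold, 2 family genes were higher, Hbegf and Btc, beside 16.4% of all measured genes, and 1 was lower, Egf, beside 10.8%.

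**Figure D5:**
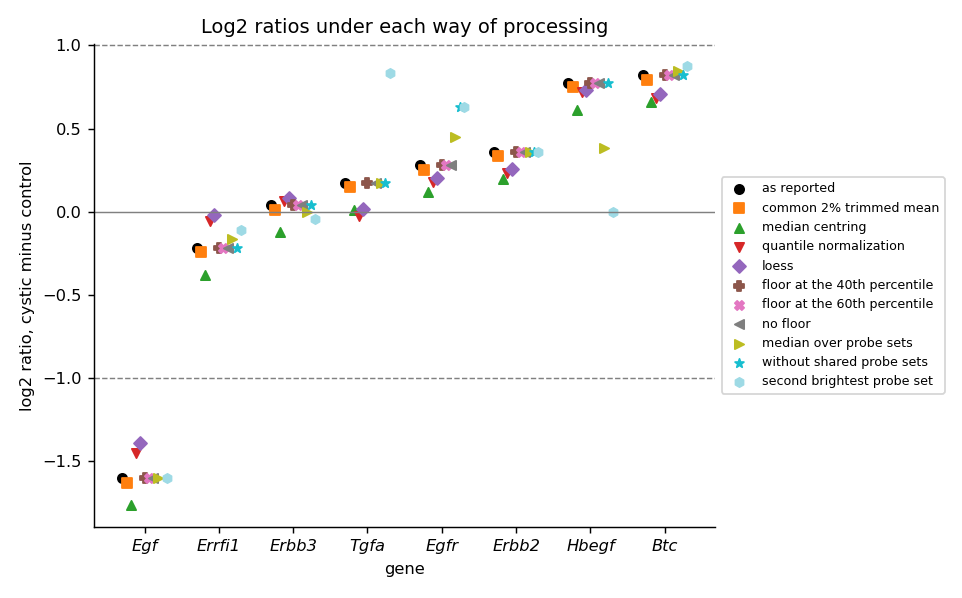
Log2 ratio, cystic minus control, of the 8 measured family genes as reported (black circles) and under each alternative processing (other symbols), with dashed lines at 2-fold. Egf lies below -1 at every symbol, and the values of Hbegf, Tgfa and Egfr spread most with the choice of probe set.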

How the data were processed

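Per the labels, the deposited values are MAS5 signals, a linear intensity per probe set, with 1 array per sample. Its version and scaling target are not given in the sources used here. Of 45101 probe sets, 64 for array control were left out. The 2% trimmed means were 178 and 181, and the deposited scaling was kept. Of the probe sets, 34945 named 1 gene in the platform annotation, 932 several and 9160 none here. Symbols were updated through gene identifiers in the RefSeq table of GRCm38.p6.

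Each array's floor was its median. A gene took its brightest probe set, by mean log2 signal after the floor. Ratios were computed in Python 3.11.15 with pandas 2.3.3 and tested on simulated arrays. No test was possible with 1 array per group, and the number of arrays limits precision. Alternatives changed the scaling, the floor, the probe set and the 2-fold limit.

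The genes and lists were chosen with earlier results of these data known. All family probe sets are given. Of each pathway list, up to 3 of the highest and lowest are named, of the segment lists all, of other marker lists the highest and the lowest; Adam10 and Adam17 were added for their known role after their values were seen.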

Additional observations from a re-analysis of the deposited data

How the results depend on the processing

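Under 11 alternatives to the processing, 232 of 249 recomputed values stayed within the SD between probe sets or, for counts, within 1.5 times. Some of these could not move, such as Egf and other genes well above the floors under another floor. The common trimmed mean and median centring shift every log2 ratio by the same amount, here less than that SD. Under these 2 scalings no ratio could pass the limit, and differences between genes could not change. A part of the 232 was therefore fixed in advance, and the count is not a measure of stability. Values lost under an alternative were not counted. With no floor, 1 of 9 family genes was past 2-fold higher (Ereg, which is under both floors). Of all 18193 named genes, 2093 were then past 2-fold higher and 1666 lower, so 1 of 9 does not set the family apart. The injured tubule median was 2.76 in that setting. With the limit at 1.5-fold, 2 family genes were past it on the higher side (Hbegf and Btc). Of all 12015 measured genes, 1970 (16.4%) were past it on the higher side and 1297 (10.8%) on the lower side. Without probe sets of the suffixes _s_at, _x_at and _a_at, Egf lost its only probe set and the count of family genes that fell was 0. Egfr then had 0.63 and the macrophage median was 3.05. With the median over probe sets, Hbegf had 0.38, Egf minus the other ligands was -1.99 and the macrophage median was 2.51. With the second brightest probe set, Tgfa had a bound of 0.83, Hbegf -0.0033, Egfr 0.63 and the macrophage median was 2.51. Median centring moved the median of all genes from 0.09 to -0.07 and turned 848 higher and 454 lower genes (65.1% higher) into 608 and 672 (47.5% higher). Egf minus the median receptor ranged from -1.96 to -1.60. No paired analysis was possible because each group has 1 array, and for the same reason no array could be left out. Signals near the floor limit Tgfa, Ereg and the fainter Btc and Egfr probe sets.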
